A study of Rattus norvegicus with 12 samples.

Results

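The genes described here encode integrins, collagens, laminins and matrix glycoproteins. They were chosen by name: integrin alpha and beta genes, collagen chains, laminin chains, and a list of 10 glycoproteins (Spp1, Fn1, Tnc, Thbs1, Thbs2, Sparc, Sparcl1, Nid1, Hspg2 and Agrn). The rule found 87 of 28111 gene names, and no name matched Hspg2. The 87 were 21 integrin subunits, 3 integrin-binding proteins whose symbols begin like a subunit, 43 collagen chains, 11 laminin chains and 9 glycoproteins. Levels are given in TPM, a transcript's share of its library per unit length scaled to a fixed total, so levels of different genes can be compared. A mean of 1 TPM or more over the 12 libraries was reached by 45 of the 87, and these were tested. Of the 42 others, 3 (Col10a1, Itgb7 and Lamc3) were listed at 0 in all 12 libraries. The members nearest to the limit were Itga9 (1.03 TPM) and Col9a3 (1.10 TPM) inside it, and Itga8 (0.967 TPM), Col1a1 (0.941 TPM) and Col4a4 (0.895 TPM) outside it.

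RNA was measured in primary cortical neuroglial cultures of newborn Wistar rats (postnatal day 0 in the labels) on day 10 in vitro, 4 h after treatment, with 3 libraries in each of 4 groups. The intact control (IC) was left without treatment. The other groups received material secreted by glial progenitor cells made from human induced pluripotent stem cells: extracellular vesicles (EV, 10 µg/mL), the 3-100 kDa proteins (15 µg/mL) or the total secretome (TS, 45 µg/mL). All groups shared the same culture type in which dividing cells had been limited with cytosine arabinoside. The dose and the composition of the treatments differ together and cannot be told apart. The study's methods describe repeats on unrelated cultures and a correction for day in one plot of IC and EV, but which libraries share a culture or a day is not given in the sources used here. The p-values thus measure only the spread between these libraries.

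Integrins are receptors of 1 alpha and 1 beta chain that bind the extracellular matrix outside the cell and the actin cytoskeleton inside it. Laminins are trimers of an alpha, a beta and a gamma chain, and with type IV collagen, nidogen and heparan sulfate proteoglycans they form basement membranes. In the brain, basement membranes lie mainly around vessels and under the pia, and the tissue between cells holds mostly hyaluronan, proteoglycans and glycoproteins such as tenascin C.

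The cultures expressed neuronal and glial genes. The summed level of 11 neuron markers was 3186 to 4077 TPM per library and that of 8 astrocyte markers 1019 to 1796 TPM. None of the 9 endothelial markers in the files reached a mean of 1 TPM. Summed endothelial markers were at 0.225 to 0.436 TPM in IC, 0.767 to 0.902 TPM in 3-100 kDa, 0.449 to 0.754 TPM in TS and 0.0751 to 0.627 TPM in EV, with Tie1 at 0 throughout. The part of these small levels in the results was not tested. Sequencing depth is not given by the values. The first component of the within-group deviations held 36.7% of their variance. On it IC 2, 3-100 kDa 1 and EV 1 scored 35.4, 28.6 and 45.5, the highest of their groups. They are called here the libraries that stood apart, a choice of 1 end of the component made after seeing the data. IC 3 and EV 3 lay far to the other side, at -31.0 and -29.7, so IC and EV were spread along it. In IC 2, 3-100 kDa 1 and EV 1 alike, 15 of the 45 tested members (33.3%) were the lowest of their group, compared with 21.4% of all tested genes. Calls that change without these 3 libraries are therefore also given. The 15 included Itga6, Itgb1, Lamc1, Fn1, Tnc and Thbs1.

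Of the 45 tested members, 9 rose after the 3-100 kDa proteins, 5 after TS and 2 after EV, at a Benjamini-Hochberg adjusted p (FDR) below 0.05 in limma over all 12861 tested genes. None fell below IC in this fit. Background shares of higher calls among all tested genes were 5.04% for 3-100 kDa minus IC, 3.25% for TS minus IC and 0.412% for EV minus IC, and those of lower calls were 1.95%, 0.879% and 0.0156%. The called members thus made up 20.0%, 11.1% and 4.44% of those tested. Itga5, the fibronectin receptor alpha chain, and Spp1, the secreted glycoprotein osteopontin, passed in all 3 comparisons. Lamc1, Col18a1 and Col4a1, all basement membrane chains, passed after 3-100 kDa and TS, and Itgb1, Itga6, Col6a1 and Col5a1 after 3-100 kDa. With the replicate number as a block, Itga6 and Itgb1 (higher) and Itga3 (lower) passed after TS as well, making 8 members. That fit called 849 of all genes in place of 531. Without the 3 libraries that stood apart, TS minus IC called 1565 of all genes in place of 531, and 3-100 kDa minus IC 1428 in place of 899. Members that passed only in these fits are thus set against more calls among all genes. Neither Itga6 nor Itgb1 was shown to differ between TS and 3-100 kDa, at log2 differences of -0.13 (95% interval -0.88 to 0.62) and -0.29 (95% interval -0.78 to 0.20). The 3 comparisons share the IC libraries and are not independent.

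By the wider criterion of unadjusted p below 0.05 and fold above 1.5, 15 members were higher after 3-100 kDa (6.48% of all genes), 14 after TS (5.38%) and 3 after EV (1.66%). None was lower, a criterion met by 3.33%, 2.46% and 0.599% of all genes. All 3 treated libraries lay above all 3 IC libraries for 15 members after 3-100 kDa (10.5% of all genes), 17 after TS (11.4%) and 4 after EV (3.3%). The median log2 fold change over the 45 members was 0.26 for 3-100 kDa, 0.27 for TS and 0.10 for EV. Over all tested genes the same medians were -0.02, -0.01 and 0.0028. A test of any difference between the 4 groups (limma's moderated F) passed for 5 members, Spp1, Itga5, Lamc1, Col18a1 and Col4a1, against 4.49% of all genes.

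**Figure D1:**
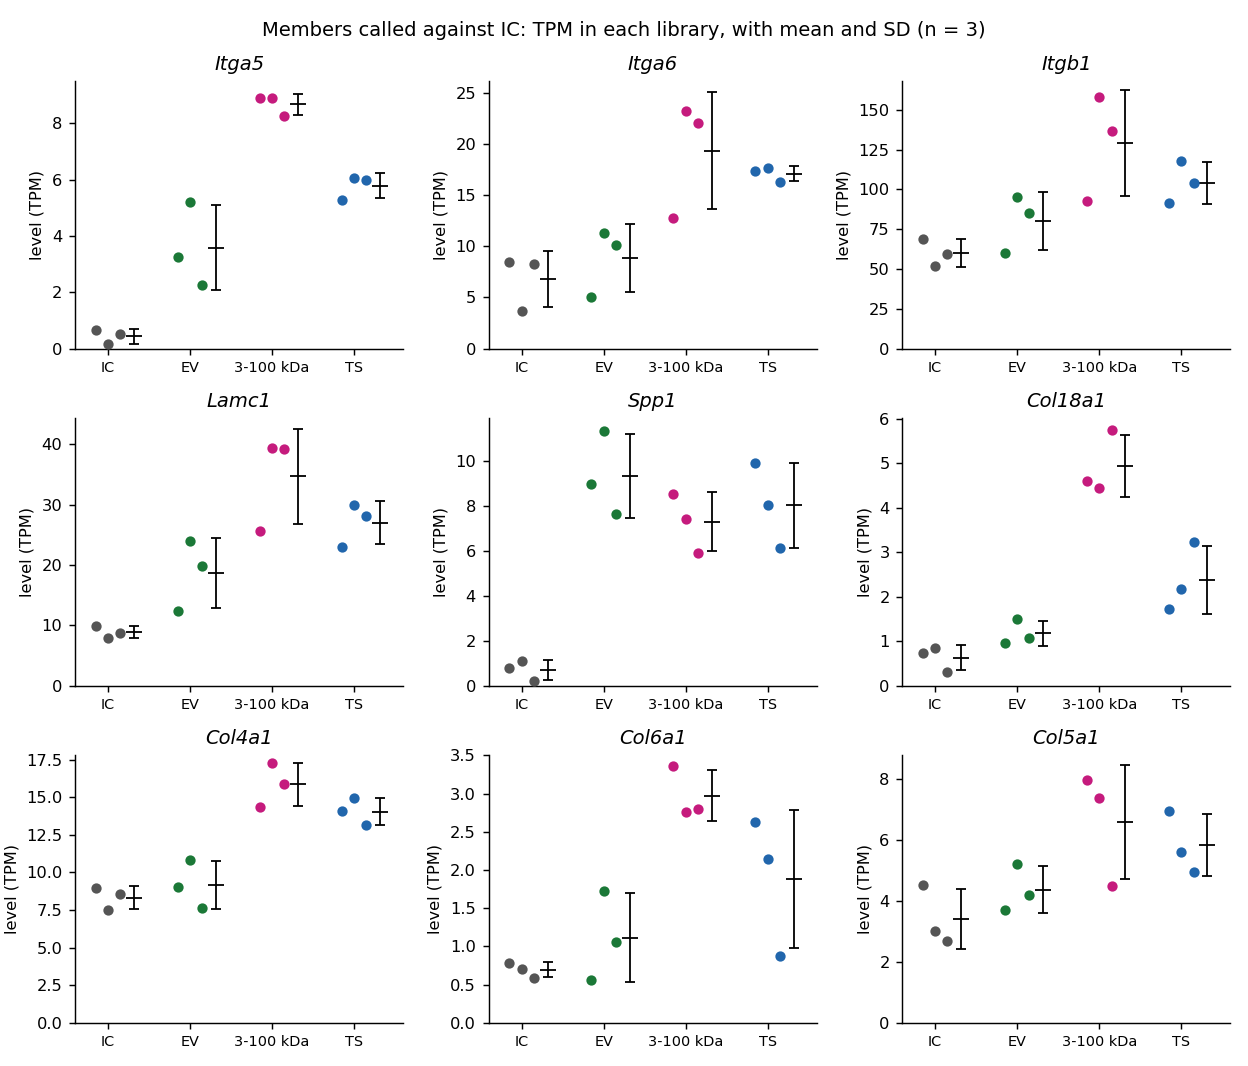
TPM (y axes, linear from 0) of the 9 members called against IC, by group (x axis), where points are libraries in replicate order and the bars beside them are the mean and SD (n = 3). Itga5 and Spp1 lay above all IC libraries in each treated group, and Lamc1 lay between 23.0 and 39.4 TPM after 3-100 kDa or TS compared with 7.96 to 9.91 TPM in IC.

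The sequences just upstream of the transcription start are shown for Itga5, Lamc1 and Spp1 because these kept their calls against IC after 3-100 kDa and TS in every alternative that was run. They are the 250 bases before the RefSeq start in the GRCr8 assembly, 5′ to 3′ on the gene's strand, a different build from the one the expression files used. Entries matched 69 of the 87 members and 8 of the 9 called members, and Itga6 had no entry. Capitals mark matches on either strand to 3 motifs, AP-1 (TGANTCA), TEAD (GGAATG) and STAT (TTCNNNGAA), none of which overlapped another in these sequences.
Itga5, chr7:136381306-136381555, minus strand: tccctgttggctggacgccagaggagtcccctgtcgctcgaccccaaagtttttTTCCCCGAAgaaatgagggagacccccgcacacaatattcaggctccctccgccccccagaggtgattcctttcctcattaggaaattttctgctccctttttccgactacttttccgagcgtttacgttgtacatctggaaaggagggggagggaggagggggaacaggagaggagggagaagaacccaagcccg
Lamc1, chr13:68051987-68052236, minus strand: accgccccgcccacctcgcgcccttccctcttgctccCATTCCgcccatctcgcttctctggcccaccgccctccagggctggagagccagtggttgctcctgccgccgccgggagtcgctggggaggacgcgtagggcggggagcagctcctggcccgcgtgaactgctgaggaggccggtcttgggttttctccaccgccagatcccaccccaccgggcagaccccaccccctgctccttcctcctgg
Spp1, chr14:5619805-5620054, minus strand: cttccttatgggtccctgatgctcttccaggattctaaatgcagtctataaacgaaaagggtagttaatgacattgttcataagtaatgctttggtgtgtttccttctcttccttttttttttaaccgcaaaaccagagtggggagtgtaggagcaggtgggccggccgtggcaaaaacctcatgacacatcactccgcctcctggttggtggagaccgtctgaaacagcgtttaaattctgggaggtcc
The Itga5 window held 1 STAT match starting 196 bases before the start. The Lamc1 window held 1 TEAD match, read on the opposite strand, starting 213 bases before it, and the Spp1 window held none of the 3. Among the 8 called members, AP-1 was found in 1 (Col6a1), TEAD in 2 (Itgb1 and Lamc1) and STAT in 1. The shares were 2.78%, 25.0% and 8.33% among the 36 tested members with an entry, and 6.36%, 11.8% and 7.52% among 27457 promoters of the same length, so that of TEAD was no higher in called than in tested members. These matches are letters in a window and do not show binding.

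Among integrin alpha chains, Itga5 rose in every treatment. The IC libraries held 0.662, 0.146 and 0.523 TPM of it, and those given the 3-100 kDa proteins 8.88, 8.90 and 8.25 TPM. TS libraries held 5.27, 6.07 and 5.99 TPM and EV libraries 3.25, 5.21 and 2.25 TPM. Every treated library was thus above every IC library, and the 3 treated groups did not overlap each other. On the log2(TPM + 1) scale the change was 2.78 (SE 0.23, limma FDR = 6.11e-05) for 3-100 kDa, 2.25 (SE 0.23, limma FDR = 0.00033) for TS and 1.62 (SE 0.23, limma FDR = 0.0101) for EV. The first 2 calls held in all alternatives, whereas that of EV was lost when EV and IC were fitted alone (limma FDR = 0.276) and without the 3 libraries that stood apart (limma FDR = 0.103).

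Itga6, an alpha chain of laminin receptors, was at 8.47, 3.63 and 8.27 TPM in IC and rose to 12.7, 23.2 and 22.02 TPM after the 3-100 kDa proteins. The 2 groups did not overlap, and the lowest library of each was one that stood apart. The log2 change was 1.44 (SE 0.34, limma FDR = 0.0292). Without IC 1, IC 2, 3-100 kDa 2 or 3-100 kDa 3 the limma FDR lay between 0.0542 and 0.123, in the fit of the pair alone it was 0.0934, and without the 3 libraries that stood apart it was 0.000526. After TS, Itga6 was at 17.3, 17.6 and 16.3 TPM, a log2 change of 1.30 that missed the threshold (limma FDR = 0.0601) and passed with the replicate number as a block (limma FDR = 0.0438) and without the 3 libraries that stood apart (limma FDR = 0.0024). EV libraries held 5.02, 11.3 and 10.1 TPM and overlapped IC.

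Itga3, which pairs with Itgb1 in another laminin receptor, had the highest mean of the alpha chains in IC and was the only member lower than IC at unadjusted p below 0.05, which 8.36% of all genes were after 3-100 kDa and 6.84% after TS. It was at 17.9, 16.5 and 15.8 TPM in IC, 15.1, 10.4 and 10.0 TPM after 3-100 kDa and 12.4, 9.94 and 11.1 TPM after TS. Both treated groups lay below all IC libraries, as did 9.77% and 8.72% of all genes in those comparisons. The log2 changes were -0.46 (SE 0.15, limma FDR = 0.108) and -0.53 (SE 0.15, limma FDR = 0.0867). The TS change passed with the replicate block (limma FDR = 0.0386) and both passed without the 3 libraries that stood apart (limma FDR = 0.0229 and 0.0275). The 3-100 kDa change also passed without 3-100 kDa 1 alone, at -0.61 (limma FDR = 0.0358). In EV, Itga3 was at 17.8, 15.8 and 15.1 TPM and overlapped IC.

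Itgav, an alpha chain of receptors for vitronectin and osteopontin, varied widely within groups. Its IC libraries held 8.45, 3.26 and 12.04 TPM and its 3-100 kDa libraries 7.79, 30.3 and 22.1 TPM. TS libraries held 12.9, 19.2 and 23.4 TPM, all above IC, and EV libraries 4.22, 13.8 and 22.02 TPM. Its log2 change was 1.23 for 3-100 kDa (95% interval -0.15 to 2.60), 1.25 for TS (-0.12 to 2.63) and 0.58 for EV (-0.79 to 1.96), none of which reached an unadjusted p of 0.05. Itga7 and Itga9, the other tested alpha chains, were at 0.345 to 3.31 TPM in all libraries and were not called.

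Itgb1, the beta chain shared by most matrix-binding integrins, was the most abundant subunit, at 69.0, 51.6 and 59.5 TPM in IC. It reached 92.6, 157.9 and 136.9 TPM after 3-100 kDa, 91.3, 117.6 and 103.7 TPM after TS and 59.9, 95.2 and 84.9 TPM after EV. The first 2 treated groups lay above all IC libraries and EV overlapped them. The log2 change was 1.10 for 3-100 kDa (SE 0.22, limma FDR = 0.0135), lost in the fit of that pair alone (limma FDR = 0.0518) and without 3-100 kDa 2 or 3-100 kDa 3 (limma FDR = 0.0682 and 0.0683). For TS it was 0.81 (SE 0.22, limma FDR = 0.0742), which passed with the replicate block (limma FDR = 0.0314) and without the 3 libraries that stood apart (limma FDR = 0.0145). For TS minus IC these fits called 849 and 1565 of all genes in place of 531. Itgb5 and Itgb8, the other tested beta chains, overlapped IC in every treatment. The binding proteins Itgb1bp1 and Itgb3bp, which are not subunits, were at 8.09 to 30.1 TPM and were not called. With the block, TS minus IC called 8 members in place of 5, adding Itga3, Itga6 and Itgb1.

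Relative levels of the alpha chains, most of which can pair with Itgb1, were also compared, a choice made after the values were seen. Itga5 was 1.13% ± 0.565 (SD, n = 3) of the summed alpha TPM in IC, 13.8% ± 3.63 after 3-100 kDa, 9.99% ± 0.503 after TS and 7.89% ± 3.32 after EV. Itga3 was 46.4% ± 10.0 of that sum in IC, 19.5% ± 9.63 after 3-100 kDa, 19.4% ± 2.87 after TS and 36.6% ± 13.1 after EV. The share of Itga3 did not overlap IC after 3-100 kDa or TS and did after EV, while that of Itga5 lay above IC in all treated libraries. With 3 libraries against 3, the smallest p that an exact two-sided permutation test can give is 0.1, so no share could pass 0.05.

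**Figure D2:**
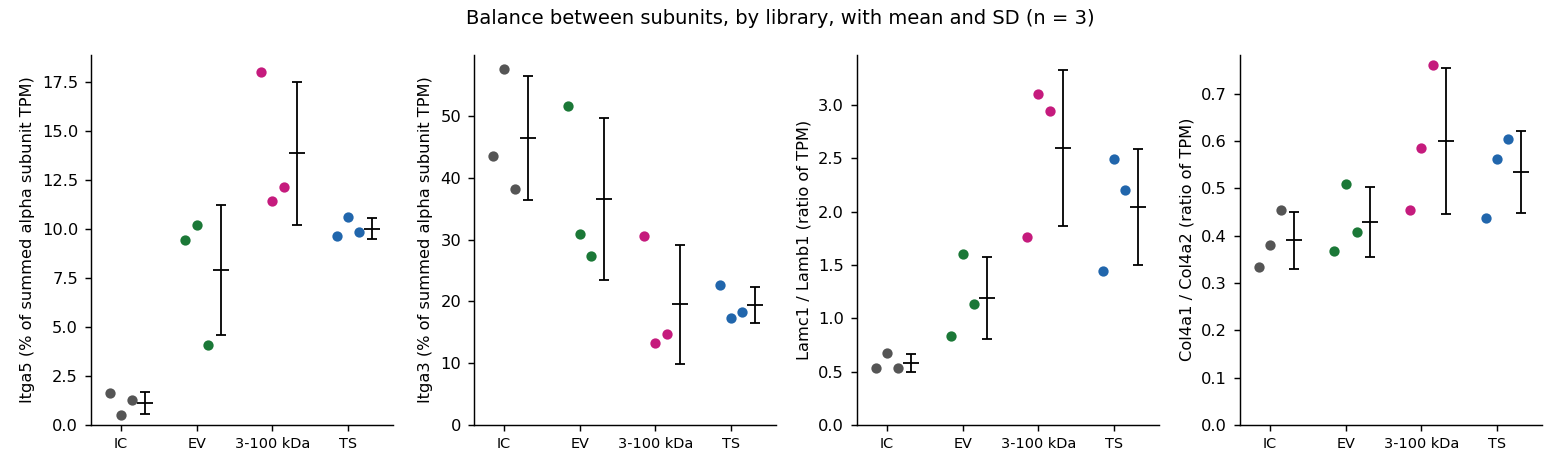
Share of Itga5 and of Itga3 in the summed TPM of integrin alpha chains (percent), and the TPM ratios Lamc1 over Lamb1 and Col4a1 over Col4a2, by group (x axis), where points are libraries and the bars beside them are the mean and SD (n = 3). The share of Itga3 has a mean of 46.4% in IC and 19.5% after 3-100 kDa, and the Lamc1 to Lamb1 ratio is 1.44 or more in all TS and 3-100 kDa libraries and 0.677 or less in IC. These measures were chosen after the values were seen.

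Among the 5 tested laminin chains, 1 rose after 3-100 kDa (5.04% of all genes were higher) and after TS (3.25%). Lamc1, the gamma chain of most laminins, was at 9.91, 7.96 and 8.66 TPM in IC, 25.6, 39.4 and 39.2 TPM after 3-100 kDa, 23.0, 30.0 and 28.1 TPM after TS and 12.4, 23.9 and 19.8 TPM after EV. No treated library was as low as any IC library. Its log2 changes were 1.87 for 3-100 kDa (SE 0.24, limma FDR = 0.000985) and 1.52 for TS (SE 0.24, limma FDR = 0.00533), and both held in every alternative. For EV it was 0.96 (SE 0.24, limma FDR = 0.253), and it passed without the 3 libraries that stood apart (limma FDR = 0.0409).

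Lamb1, the beta chain that joins Lamc1 in several laminins, was not called. It was at 18.6, 11.8 and 16.2 TPM in IC, 14.6, 12.7 and 13.4 TPM after 3-100 kDa, 16.01, 12.02 and 12.8 TPM after TS and 14.9, 14.9 and 17.5 TPM after EV, and it overlapped IC in every treatment. The Lamc1 to Lamb1 ratio of TPM was 0.581 ± 0.083 in IC, 2.60 ± 0.731 after 3-100 kDa, 2.04 ± 0.546 after TS and 1.19 ± 0.388 after EV (SD, n = 3). This ratio was also chosen after the values were seen, so it restates the change of Lamc1. Against IC its exact permutation p was 0.1 in each treatment, the smallest possible. Lamb2 was at 3.54 to 6.05 TPM, and the alpha chains Lama4 and Lama5 were at 0.715 to 3.64 TPM. None of these 3 was called.

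The basement membrane collagens had 4 tested chains, of which Col4a1 and Col18a1 rose after 3-100 kDa (5.04% of all genes were higher) and TS (3.25%). Col18a1, whose cleaved end is endostatin, was at 0.736, 0.853 and 0.305 TPM in IC, and reached 4.61, 4.45 and 5.74 TPM after 3-100 kDa. TS libraries held 1.73, 2.17 and 3.23 TPM and EV libraries 0.961, 1.498 and 1.08 TPM. All treated libraries were above IC, and the order of the groups was 3-100 kDa, TS, EV, IC with no overlap between neighbours. Col18a1 changed by 1.90 on the log2 scale for 3-100 kDa (SE 0.25, limma FDR = 0.00109), 1.06 for TS (SE 0.25, limma FDR = 0.0387) and 0.43 for EV, which missed an unadjusted p of 0.05. The TS call was lost in the fit of that pair alone (limma FDR = 0.148) and without any of IC 1, IC 2, IC 3, TS 2 or TS 3 (limma FDR between 0.0534 and 0.155).

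Col4a1, a chain of the main type IV collagen network, was at 8.97, 7.47 and 8.55 TPM in IC, at 14.4, 17.3 and 15.9 TPM after 3-100 kDa, 14.1, 14.9 and 13.2 TPM after TS and 9.03, 10.8 and 7.64 TPM after EV. The 3-100 kDa and TS libraries lay above those of IC and EV, which overlapped each other. Col4a1 changed by 0.88 on the log2 scale for 3-100 kDa (SE 0.14, limma FDR = 0.00364), held in every alternative, and 0.71 for TS (SE 0.14, limma FDR = 0.0174). Without IC 1, IC 2, TS 2 or TS 3 the limma FDR of the TS change was 0.0517 to 0.0901, and in the fit of that pair alone it was 0.0667.

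Col4a2, which joins Col4a1 in the same trimer, was at 18.9 to 26.9 TPM in IC, 20.9 to 31.7 TPM after 3-100 kDa, 21.8 to 32.2 TPM after TS and 18.7 to 24.6 TPM after EV, overlapped IC in every treatment and was not called. Col4a5, a chain of another type IV network, was at 1.93 to 3.95 TPM in IC and was not called. The starts of the pair lie head to head, so that both are transcribed away from one short stretch, which is shown because 1 of its 2 genes was called. The 76 bases between the RefSeq starts in GRCr8, plus strand, are 78.9% G or C, compared with 52.6% over all upstream windows, and hold none of the 3 motifs.
Col4a2 to Col4a1, chr16:84885521-84885596, plus strand: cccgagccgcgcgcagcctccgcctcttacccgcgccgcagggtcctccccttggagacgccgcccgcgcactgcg

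Of the 6 tested fibrillar collagen chains, Col5a1 passed after 3-100 kDa (5.04% of all genes were higher), at 7.99, 7.37 and 4.48 TPM compared with 4.53, 3.03 and 2.69 TPM in IC. One treated library lay just under the highest IC library. Its log2 change was 0.80 (SE 0.20, limma FDR = 0.0334), and 9 of 14 alternatives lost the call, among them those without IC 2, IC 3, 3-100 kDa 1 or 3-100 kDa 2 (limma FDR between 0.0888 and 0.130) and without the 3 libraries that stood apart (limma FDR = 0.119). Col11a1, another chain of type V and XI fibrils, had a log2 change of 0.83 (SE 0.25, limma FDR = 0.0717), which passed without IC 1, at 1.09 (limma FDR = 0.0291). Col5a3 had one of 0.56 (SE 0.24, limma FDR = 0.22) after 3-100 kDa. After TS, Col5a3 had one of 0.72 (SE 0.24, limma FDR = 0.137), which passed without the 3 libraries that stood apart (limma FDR = 0.0492). Col1a1, a chain of type I collagen that missed the level limit, was at 0.360, 0.0365 and 0.261 TPM in IC and 1.29, 1.64 and 1.81 TPM after 3-100 kDa. It was called there without the limit. It was also called without IC 3, where its mean reached the limit only because a library of low level was left out. That call is therefore not counted as support, and all these levels lie near the limit. After TS it was at 0.805, 1.58 and 1.005 TPM, also above all IC libraries, and was called without the limit. EV libraries held 0.576, 0.974 and 0.967 TPM, likewise above IC, and it was not called there. Col5a2, which forms type V collagen with Col5a1, was at 2.06 to 6.31 TPM in IC, overlapped IC in every treatment and was not called.

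Of the 9 tested beaded, fibril-associated and other collagens, Col6a1 passed after 3-100 kDa (5.04% of all genes were higher). Col6a1, a chain of the beaded filaments around cells, was at 0.786, 0.709 and 0.590 TPM in IC, 3.36, 2.77 and 2.80 TPM after 3-100 kDa, 2.63, 2.15 and 0.880 TPM after TS and 0.560, 1.72 and 1.06 TPM after EV. The 3-100 kDa libraries did not overlap any other group. The log2 change was 1.24 (SE 0.27, limma FDR = 0.0172), and without IC 1, IC 3, 3-100 kDa 1, 3-100 kDa 2 or 3-100 kDa 3 its limma FDR was 0.0532 to 0.0703, and without the 3 libraries that stood apart it was 0.0544. Its partners Col6a2 and Col6a3 had log2 changes of 0.64 (SE 0.26, limma FDR = 0.186) and 0.50 (SE 0.19, limma FDR = 0.157), the latter passing without the level limit (limma FDR = 0.039). Col12a1 had one of 0.83 (SE 0.27, limma FDR = 0.0972). Col26a1, Col16a1 and Col19a1, of highest mean in IC among these 9, were at 7.78, 4.75 and 2.79 TPM there, overlapped IC in every treatment and were not called. Neither tested transmembrane collagen, Col23a1 or Col25a1, was called. Summed over the 43 chains, collagen TPM was 87.7 ± 18.9 in IC, 124 ± 13.8 after 3-100 kDa, 116 ± 11.5 after TS and 94.9 ± 10.4 after EV (SD, n = 3).

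**Figure D3:**
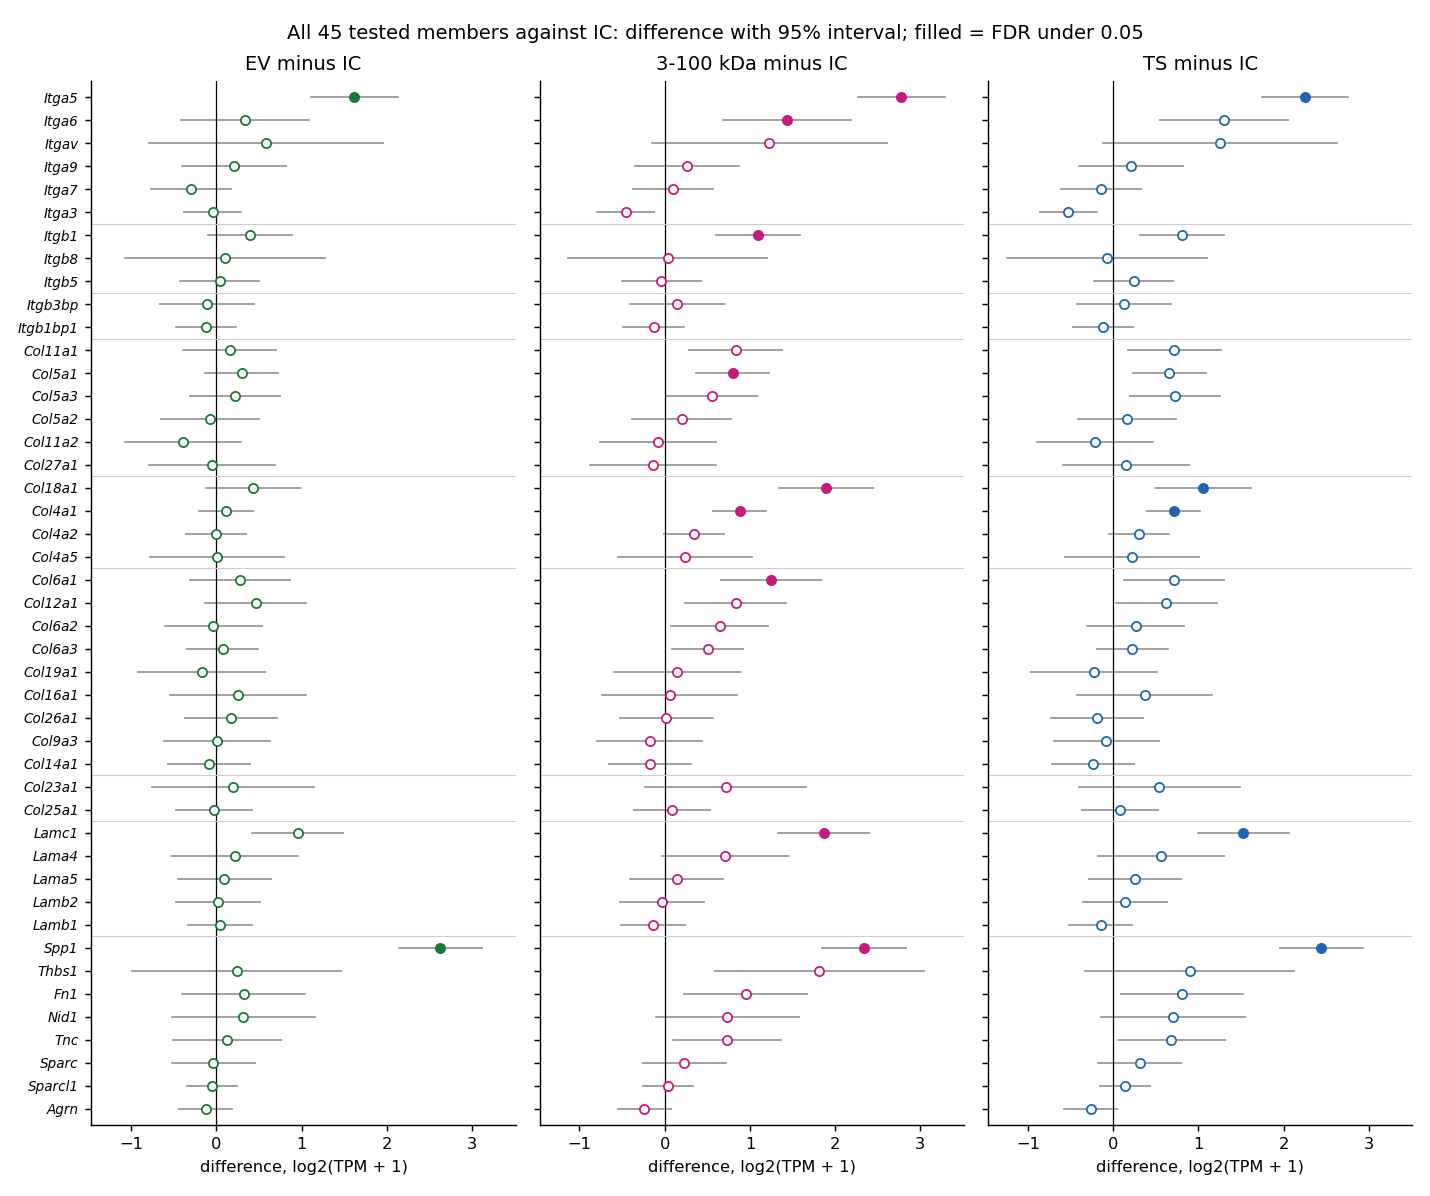
Change from IC, on the log2(TPM + 1) scale with 95% intervals (x axis), of the 45 tested members, grouped by family, in 1 panel each for EV, 3-100 kDa and TS, with a filled point where FDR is below 0.05. Itga5 and Spp1 are filled in all 3 panels, at 1.62 to 2.78 and 2.34 to 2.62.

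By mean over the 12 libraries, the 2 most abundant members were the glycoproteins Sparcl1 and Sparc, followed by Itgb1 and Agrn. Sparcl1 (hevin), a synapse-organising protein of astrocytes, was at 235 to 317 TPM and Sparc, a collagen-binding protein, at 186 to 342 TPM over the 12 libraries. Agrn (agrin), a proteoglycan that organises synapses, was at 49.5 to 86.4 TPM and Nid1 (nidogen), which links laminin to type IV collagen, at 10.0 to 38.0 TPM. None of these 4 was called in any comparison, and Thbs2, at a mean of 0.0638 TPM, was not tested.

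Spp1, osteopontin, a ligand of several integrins, was at 0.799, 1.11 and 0.193 TPM in IC. It was at 8.55, 7.41 and 5.93 TPM after 3-100 kDa, 9.92, 8.04 and 6.14 TPM after TS and 8.97, 11.4 and 7.66 TPM after EV. All 9 treated libraries were above all IC libraries, and the treated groups overlapped one another. Its log2 changes were 2.34 for 3-100 kDa (SE 0.22, limma FDR = 0.000116), 2.44 for TS (SE 0.22, limma FDR = 0.000186) and 2.62 for EV (SE 0.22, limma FDR = 0.000567). These calls held in every alternative, at a highest FDR of 0.0347 for EV. Spp1 is also a gene of microglia, and the defining microglia markers Cx3cr1 and P2ry12 were at 0 to 0.206 TPM in all libraries.

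Thbs1, Fn1 and Tnc, which encode thrombospondin 1, fibronectin and tenascin C, did not pass the threshold after 3-100 kDa. Thbs1 was at 3.46, 1.20 and 2.71 TPM in IC and 4.29, 10.6 and 23.5 TPM after 3-100 kDa. The treated libraries lay above IC but differed widely among themselves. Its log2 change was 1.81 (SE 0.56, limma FDR = 0.081), and it passed with the replicate block (limma FDR = 0.02), without 3-100 kDa 1 (limma FDR = 0.0227) and without the 3 libraries that stood apart (limma FDR = 0.039). The replicate numbers showed no pairing for 3-100 kDa minus IC, so the block has no such basis there. Fn1, the main ligand of the receptor that contains Itga5, was at 6.73, 3.01 and 6.48 TPM in IC and 7.69, 12.9 and 12.1 TPM after 3-100 kDa. Its log2 change was 0.95 (SE 0.33, limma FDR = 0.121). Tnc was at 34.5, 26.3 and 34.5 TPM in IC and 37.9, 70.8 and 52.3 TPM after 3-100 kDa, with a log2 change of 0.73 (SE 0.29, limma FDR = 0.174). Fn1 and Tnc also lay above IC after TS, and both passed after 3-100 kDa without the 3 libraries that stood apart (limma FDR = 0.0148 and 0.0129), as Tnc did after TS (limma FDR = 0.0441).

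**Figure D4:**
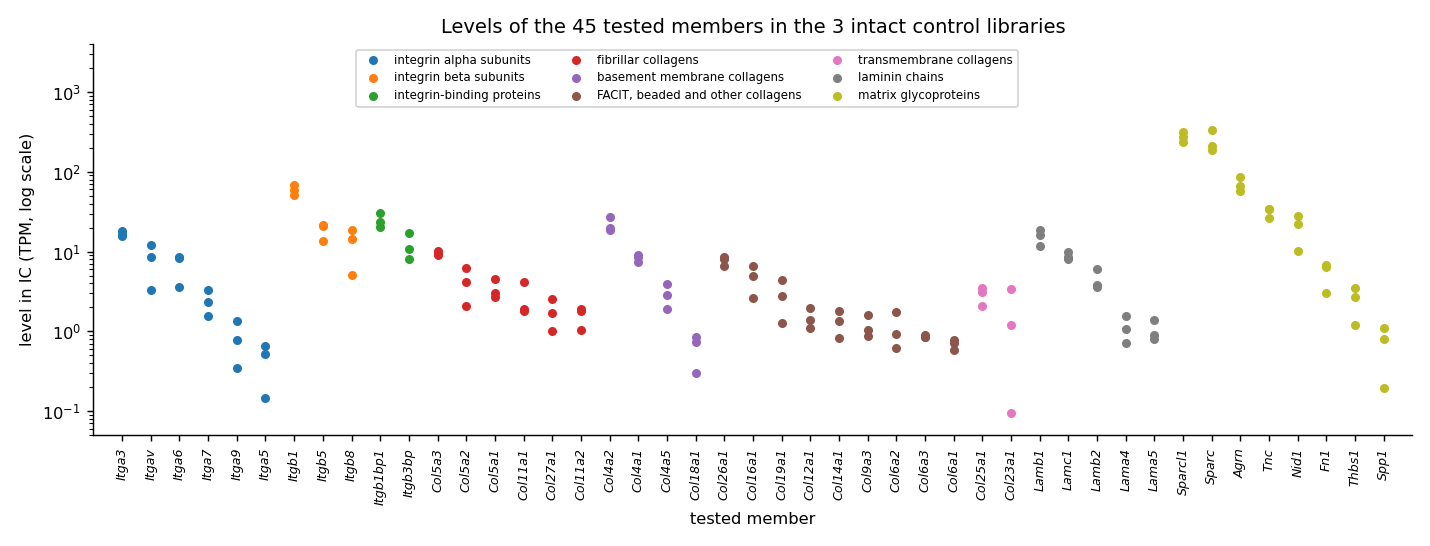
TPM in IC (y axis, log scale) of the 45 tested members (x axis), where points are the 3 libraries and colours are families. Sparcl1, Sparc, Agrn and Itgb1 had the highest means, at 273, 244, 69.9 and 60.0 TPM.

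The treatments were also compared with one another. Against 3-100 kDa, EV held 3 members at lower levels, Col18a1, Col4a1 and Itga5, where 1.25% of all genes were lower and 0.218% higher. The log2 differences were -1.47 for Col18a1 (SE 0.25, limma FDR = 0.0168), -0.77 for Col4a1 (SE 0.14, limma FDR = 0.0246) and -1.16 for Itga5 (SE 0.23, limma FDR = 0.0338). All 3 had EV libraries below every 3-100 kDa library, as did 6.64% of all genes and 10 members in all. By unadjusted p below 0.05 and fold above 1.5, 10 members were lower (3.61% of all genes) and 0 higher (1.59%). All 3 calls were lost in the fit of this pair alone (limma FDR = 0.0663, 0.176 and 0.159) and without 3-100 kDa 2, 3-100 kDa 3, EV 1 or EV 3 (limma FDR between 0.0563 and 0.143). Itga5 also lost its call without 3-100 kDa 1 (limma FDR = 0.0845), with a pseudocount of 0.1 (limma FDR = 0.15) and without rescaling (limma FDR = 0.0555), so that it kept the call in 4 of 13 alternatives, and Col4a1 lost its call without rescaling (limma FDR = 0.0507). Without the 3 libraries that stood apart, Col18a1 and Itga5 lost theirs (limma FDR = 0.0669 and 0.0841), while Itga6, Itgb1 and Lamc1 were lower at limma FDR = 0.0065, 0.0357 and 0.0446. Lamc1, at -0.91 (SE 0.24, limma FDR = 0.108), also passed with the replicate block (limma FDR = 0.0355).

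No member passed for EV minus TS, where 0.358% of all genes were lower and 0.0933% higher in limma, although 6 members were lower and 1 higher at unadjusted p below 0.05, which 5.23% and 4.42% of all genes were. With fold above 1.5 as well, 4 members were lower (2.49% of all genes) and 0 higher (1.39%). The lowest p was that of Col4a1, at -0.60 (95% interval -0.91 to -0.28, limma FDR = 0.121), and without the 3 libraries that stood apart Itga6 passed, at -0.66 (limma FDR = 0.0322), in a fit that called 239 of all genes in place of 58. For TS minus 3-100 kDa, limma called 0 of the 12861 genes (2 when this pair was fitted alone, neither a member), with 108 higher and 141 lower at unadjusted p below 0.05. These were 0.84% and 1.1% of all genes, and with fold above 1.5 as well 0.404% and 0.583%. Among members the lower ones were Col18a1, at -0.84 (95% interval -1.39 to -0.28), and Itga5, at -0.52 (95% interval -1.03 to -0.01). The differences of Spp1 were 0.29 for EV minus 3-100 kDa (95% interval -0.20 to 0.77), 0.18 for EV minus TS (-0.31 to 0.67) and 0.11 for TS minus 3-100 kDa (-0.38 to 0.59), so differences in either direction are within the intervals.

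The genes that work beside these members were described from fixed lists. Of 21 tested focal adhesion adaptors, which join integrins to actin, 6 rose after 3-100 kDa, 5 after TS and none after EV, and none fell. Among all tested genes, 5.04%, 3.25% and 0.412% were higher in these comparisons. Vcl (vinculin) was at 8.80 ± 1.89 TPM in IC, 48.5 ± 13.9 after 3-100 kDa, 30.7 ± 5.73 after TS and 16.5 ± 5.13 after EV (SD, n = 3), with log2 changes of 2.34 and 1.71 for the first 2 (limma FDR = 0.000754 and 0.00794). Actn1 (alpha-actinin 1) changed by 1.58 and 1.27 (limma FDR = 7.3e-05 and 0.000469), and Zyx, Vasp and Tns1 passed in both as well. Actn4 passed after 3-100 kDa, with a log2 change of 0.37 (limma FDR = 0.0377), and not after TS, though at a similar level. It was at 74.0 ± 4.51 TPM in IC, 94.3 ± 8.79 after 3-100 kDa and 92.6 ± 9.54 after TS (SD, n = 3). For EV the lowest p was that of Vcl, at 0.81 (limma FDR = 0.823).

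Of 14 other matrix receptors, 3 rose after 3-100 kDa (5.04% of all genes), 2 after TS (3.25%) and 1 after EV (0.412%). Cd44, the hyaluronan receptor, which also binds osteopontin, was at 4.87, 1.08 and 2.08 TPM in IC. It was at 63.5, 98.7 and 103.8 TPM after 3-100 kDa, 51.8, 60.8 and 61.2 TPM after TS and 22.3, 49.98 and 39.0 TPM after EV, so no treated library overlapped IC. Its log2 changes were 4.74, 4.15 and 3.43 (limma FDR = 3.4e-05, 0.000158 and 0.00182). Sdc4, a heparan sulfate co-receptor of fibronectin, rose by 1.70 and 1.30 after 3-100 kDa and TS (limma FDR = 0.000753 and 0.00607) and was 1.07 higher after EV (limma FDR = 0.0703). Plaur, the urokinase receptor, rose by 2.12 after 3-100 kDa (limma FDR = 0.0127).

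Genes that process or remodel the matrix were read against the same background shares. Of 13 collagen-processing enzymes, P4ha1 and Plod3, which hydroxylate proline and lysine, rose after 3-100 kDa, by 0.69 and 0.59 (limma FDR = 0.0161 and 0.0363), where 5.04% of all genes were higher. None passed after TS (3.25%) or EV (0.412%), which does not show a difference from 3-100 kDa. P4ha1 was at 17.3 ± 2.28 TPM in IC, 27.7 ± 1.40 after 3-100 kDa and 25.2 ± 6.57 after TS (SD, n = 3). The median log2 change over the 13 was 0.12 after 3-100 kDa and 0.21 after TS. Of 14 proteases and inhibitors, 3 rose after 3-100 kDa (5.04% of all genes), 2 after TS (3.25%) and 1 after EV (0.412%). Timp1, a metalloproteinase inhibitor, was at 12.6 ± 6.12 TPM in IC, 226 ± 30.7 after 3-100 kDa, 145 ± 41.9 after TS and 107 ± 15.5 after EV (SD, n = 3), with log2 changes of 4.17, 3.49 and 3.07 (limma FDR = 3.26e-05, 0.000186 and 0.0015). Adamts9 rose after 3-100 kDa and TS and Adamts1 after 3-100 kDa. Of 11 tested genes of the hyaluronan matrix of the brain, Has2 (hyaluronan synthase 2) and Acan (aggrecan) rose after 3-100 kDa, by 2.38 and 1.39, and after TS, by 1.72 and 1.60 (limma FDR between 0.00055 and 0.00679). None passed after EV, where Has2 was at 2.27, 5.07 and 4.69 TPM, above the 1.52, 0.361 and 0.613 TPM of IC, at a log2 difference of 1.45 (limma FDR = 0.0701). None of the genes tested in these lists fell.

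Markers of cell types were set beside these changes. Of 11 neuron markers, Nefm rose after 3-100 kDa and TS, by 0.79 and 0.72 (limma FDR = 0.0162 and 0.0353), where 5.04% and 3.25% of all genes were higher. The median log2 difference over the 11 was 0.02 and -0.06, and Tubb3 was at -0.26 and -0.28. Summed neuron markers were at 3897 to 4054 TPM in IC, lower in all libraries after 3-100 kDa (3291 to 3849 TPM), and overlapped IC after TS (3186 to 3993 TPM) and EV (3711 to 4077 TPM). The part of this in the results was not tested. None of 8 astrocyte or 7 oligodendrocyte lineage markers was called against IC. The astrocyte filament Gfap differed by 1.59 after EV (SE 0.49, limma FDR = 0.512), 1.40 after TS (limma FDR = 0.159) and 1.05 after 3-100 kDa (limma FDR = 0.268). Among lineage markers, Olig1 and Sox10 differed by -0.59 and -0.79 after 3-100 kDa (limma FDR = 0.103 and 0.206), and Olig2 by 0.53 after TS (limma FDR = 0.076). Among 3 tested mural cell markers, 1 fell after 3-100 kDa and TS, where 1.95% and 0.879% of all genes were lower. This was Pdgfrb, from 3.18, 4.01 and 2.45 TPM in IC to 0.481, 0.852 and 0.321 TPM after 3-100 kDa and 1.34, 1.03 and 1.20 TPM after TS (limma FDR = 0.00291 and 0.0436). Pdgfrb was also below IC after EV, at 1.12, 1.73 and 0.960 TPM, a log2 difference of -0.89 that missed the threshold (limma FDR = 0.236). Acta2, Des and Myh11 were too low to be tested and did not move one way. Acta2 was listed at 0 in all 3 IC libraries and at 0.926, 1.64 and 1.02 TPM after 3-100 kDa, and Des was at 0.126, 0.308 and 0.122 TPM and at 0.452, 0.801 and 1.25 TPM. Myh11 was at 1.06, 1.03 and 1.23 TPM in IC and lay below that in every treated library, at 0.677, 0.631 and 0.589 TPM after 3-100 kDa, 0.924, 0.699 and 0.731 TPM after TS and 0.838, 1.01 and 0.707 TPM after EV. Notch3 and Cspg4 were not called, and Rgs5 and Kcnj8 were at 0 in 11 of 12 libraries. Of 12 fibroblast and meningeal markers, Prrx1 was at 2.97 to 9.51 TPM and was not called, Dcn and Lum were at 0.168 TPM or less and 3 were at 0 in all libraries. In these bulk libraries, a change in the number of cells of a type and a change in RNA per cell cannot be told apart, and the part of either was not tested.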

How the data were processed

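The deposited values were taken as TPM computed by the authors, since they sum to 1000000 per library and are not whole, although no header names the unit. Per the study's methods, the authors trimmed reads, quantified them with Salmon on rat Ensembl transcripts with a genome decoy and summarised them with tximport. The labels name the build Rnor 6.0, and the labels and the methods name different library kits and sequencers. Depth is unknown, so no counting intervals are given.

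Rows of 1 name were summed, which applied to 497 names (Col23a1 among the members). TPM were rescaled by median-of-ratios size factors and tested as log2(TPM + 1) in limma 3.58.1 (R 4.3.3; lmFit, eBayes with trend) on all 12 libraries, 3 per group, for genes of mean TPM 1 or more (12861), with Benjamini-Hochberg adjustment over all of them. Printed TPM are unscaled, and fold changes on this scale understate those of low genes. The script was tested on simulated data. The members and lists were chosen with earlier results of these data known. Named were called members, the 10 members of largest change with unadjusted p below 0.05 against IC, the 3 highest in IC of the integrin alpha, integrin beta, collagen and laminin families, the glycoproteins, and called genes of the other lists (otherwise the up to 2 of lowest p).

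The replicate numbers of the labels were checked for pairing by the correlation of same-numbered libraries' deviations from their group means. All 3 were over 0.1 for TS minus IC (0.129 to 0.222), EV minus 3-100 kDa (0.237 to 0.542), EV minus TS (0.177 to 0.239) and TS minus 3-100 kDa (0.166 to 0.337), so the block is treated as a pairing there. For EV minus IC (-0.152 to 0.455) and 3-100 kDa minus IC (-0.205 to 0.214) they were not. Integrin genes whose symbols have a capital-letter form in the rule, such as the leukocyte chains, fell outside it. An exact 0 can be a failed estimate, since Rps6, a gene every cell uses, has the value 0 in 12 of 12 libraries.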

Additional observations from a re-analysis of the deposited data

How the results depend on the processing

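Fold changes against IC or between treatments kept their direction in all 788 alternative values run, of which 708 stayed on the same side of the FDR threshold, 57 lost it and 23 gained it. Counts of called members that moved by over 1.5 times were as follows. Fitting each pair alone gave 1 member for EV minus IC (2 as reported), 3 for TS minus IC (5 as reported) and 0 for EV minus 3-100 kDa (3 as reported). A filter of mean TPM 5 gave 1, 5, 3 and 1 for EV minus IC, 3-100 kDa minus IC (9 as reported), TS minus IC and EV minus 3-100 kDa, and 3 in the moderated F (5 as reported). Members under 5 TPM were left out there, while Col5a1 was tested and lost its call after 3-100 kDa (limma FDR = 0.0515). By unadjusted p and fold it gave 9 for 3-100 kDa minus IC (15 as reported), 9 for TS minus IC (14 as reported), 5 for EV minus 3-100 kDa (10 as reported), 2 for EV minus TS (4 as reported) and 0 for TS minus 3-100 kDa (1 as reported). Without rescaling, EV minus 3-100 kDa had 1. Without IC 2, 3-100 kDa 1 and EV 1, chosen after seeing the data, TS minus IC had 10, EV minus TS 1 (Itga6), the moderated F 9 and TS minus 3-100 kDa 2 by unadjusted p and fold. The cause of the other moves was not tested. Leaving out 1 library gave 5 to 9 for 3-100 kDa minus IC, 3 to 5 for TS minus IC and 0 to 3 for EV minus 3-100 kDa, and by unadjusted p and fold 2 to 6 for EV minus TS and 1 to 2 for TS minus 3-100 kDa.

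With the replicate block, TS minus IC had 8 members called, and TS minus 3-100 kDa had 2 by unadjusted p and fold. EV minus 3-100 kDa gained Lamc1 (limma FDR = 0.0355), and in the unpaired 3-100 kDa minus IC Thbs1 was gained. The block changed no other count by over 1.5 times. Over all genes, TS minus IC had 531 calls, 849 with the block, 233 in the fit of the pair and 1565 without the 3 libraries. By the same steps 3-100 kDa minus IC had 899, 389 in the fit of the pair and 1428 without the 3. In the fit of the pair alone, EV minus IC had 14 calls in place of 55, EV minus 3-100 kDa 63 in place of 189 and EV minus TS 21 in place of 58, the last 2 having 305 and 107 with the block. EV minus TS had 239 without the 3. Leaving out 1 library gave 394 to 755 for 3-100 kDa minus IC (fewer by over 1.5 times without IC 1, IC 3, 3-100 kDa 2 or 3-100 kDa 3), 203 to 478 for TS minus IC (likewise without IC 1, IC 3, TS 2 or TS 3), 31 to 62 for EV minus IC (without IC 1, IC 3 or EV 2), 60 to 149 for EV minus 3-100 kDa (without 3-100 kDa 2, 3-100 kDa 3 or any EV library) and 18 to 41 for EV minus TS (without any TS library, EV 2 or EV 3), so the background shares move with them. Unknown depth limits the precision of members near 1 TPM.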
